A study of Mus musculus with 16 samples.

Results

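The comparison of mouse cortical neurons given c-Fos shRNA with those given control shRNA, both after 1 h of KCl, was taken from the array titles and covered 4 of the 16 arrays of the series. Each of the 2 groups had 2 arrays. The neurons came from cortices of C57BL/6 mouse embryos at embryonic day 16.5. In both groups, lentivirus was put on the cultures on day 5 in vitro for 6 h with polybrene at 6 µg per ml, carrying an shRNA against c-Fos in one group and an shRNA against firefly luciferase, which mouse cells lack, in the other. All cultures of the series were silenced on day 7 and then given KCl for 0, 1, 3 or 6 h, so the 0 h cultures were infected and silenced as well. Total RNA of whole cultures was purified with Trizol and RNeasy columns, and each array received 10 µg of labelled cDNA on the single-colour Affymetrix mouse genome 430 2.0 design. The labels name 1 shRNA against c-Fos and 1 control shRNA and do not give their sequences. They call the arrays of a group bioreplicates, with no word on whether the dissections were separate. The p-values therefore describe only how far these arrays spread.

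Depolarisation with KCl opens voltage-gated calcium channels, and calcium signalling through CREB, SRF and related factors switches on early-response genes within minutes. Fos is one of these genes. Its protein, c-Fos, pairs with Jun proteins to form AP-1, which binds the AP-1 motif and takes part in switching on later genes, while other early-response genes such as Arc and Npas4 are induced without new protein synthesis. The 1 h time point lies inside the early wave, and the comparison addresses which genes differed between the shRNAs at that time and whether the difference was already there in silenced neurons.

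The 4 arrays had medians of deposited intensity between 108.52 and 115.19, and the replicates of the 2 groups of 1 h correlated at 0.99064 to 0.99386 across genes. Depth cannot be stated for arrays, and their number limits the precision. Pan-neuronal markers were bright, with summed intensities of 84214 and 87064 on the c-Fos shRNA arrays and 88512 and 89752 on the control arrays, and astrocyte markers summed to between 24672 and 31214. All 10 microglia markers together summed to between 358.83 and 439.1. Tyrobp and Itgam, among the dimmest of them, read between 1.79 and 17.35 on these arrays. Csf1r, the brightest of them, read 188 and 186 with c-Fos shRNA and 160 and 163 with control shRNA. The 18S ribosomal RNA control at its 3′ end read 4118 and 4117.74 on the c-Fos shRNA arrays and 5105.78 and 4882.26 on the control arrays, so the groups did not overlap there. The groups overlapped on the other 18S probe sets, at 8009.5 and 5217.74 against 8984.99 and 7052.05 for the 5′ end. The middle one read 4156.75 and 2545.26 against 4778.48 and 3441.23. On each 18S probe set, the c-Fos shRNA array read lower than the control array of the same replicate number. The part of the 18S control in the results was not tested. The 3′ to 5′ ratio of the β-actin control lay between 1.189 and 1.21 on the 4 arrays. Since RNA came from whole cultures, fewer cells of a type and less RNA per cell cannot be told apart.

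Fos, the targeted gene, was lower on both c-Fos shRNA arrays at 1 h, at a level that was still far above that of silenced neurons. Its deposited intensity was 7728 and 9623 with c-Fos shRNA and 14633 and 14719 with control shRNA, and the groups did not overlap. At 0 h it was 118 and 152 against 261 and 232, at 3 h 3763 and 4297 against 13638 and 13308, and at 6 h 3142 and 3340 against 11960 and 11898. On the log2 scale used for all tests, the mean of the c-Fos shRNA arrays minus that of the control arrays was -0.75 ± 0.10 (SE, 2 arrays against 2), with a limma adjusted p of 0.000248. The rise of Fos from 0 to 1 h was 5.85 ± 0.10 in log2 in the c-Fos shRNA arm and 5.83 ± 0.10 in the control arm. By size, Fos ranked 302nd among the 1389 genes called lower.

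Of 13916 genes tested, 2885 (20.7%) were called at a limma adjusted p under 0.05. Of these, 1496 (10.8%) were higher and 1389 (9.98%) were lower with c-Fos shRNA. Most differences were small, since 1417 of the called genes differed by less than 0.5 in log2 and 308 (2.21%) by at least 2-fold, 186 higher (1.34%) and 122 lower (0.877%). The median difference over all genes was 0.02, with 5th and 95th percentiles of -0.56 and 0.59. The groups did not overlap on the normalized scale for 56.1% of genes. The c-Fos shRNA arrays both lay above the control arrays for 4077 genes (29.3%) and both below for 3723 genes (26.8%). A block for the replicate number raised the count to 5267 (2703 higher, 2564 lower), among them all 2885. Leaving out control replicate 1 lowered it to 1590 (765 higher, 825 lower). On the deposited scale with no quantile step, 1243 genes were higher and 1344 lower.

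The largest higher differences at 1 h were in Prnp, Fstl1, Gpd1l, Txndc5 and Pop7. Prnp, which encodes the cellular prion protein, read 12327 and 14649 with c-Fos shRNA against 1167 and 2184 with control shRNA, a log2 difference of 3.11 ± 0.30 (limma adjusted p = 2.21e-05). A second Prnp probe set differed by 3.12, and the arrays of the groups did not overlap on either probe set. Fstl1, a secreted glycoprotein related to follistatin, read 1889 and 2264 against 285 and 458 (2.51 ± 0.22). Gpd1l, a glycerol-3-phosphate dehydrogenase-like enzyme, read 3673 and 4024 against 635 and 871 (2.42 ± 0.19). Txndc5, a disulfide isomerase of the endoplasmic reticulum, read 1598 and 1499 against 256 and 322 (2.40 ± 0.15). In each of these genes the lower c-Fos shRNA array was at least several times the higher control array. Pop7, a subunit of RNase P, differed by 2.37. The other 10 of the 15 largest were Smim13, B3glct, Zfp580, Ust, Trappc2, 1600012H06Rik, Npnt, Egln3, Ubxn2a and Akap7, with log2 differences down to 1.78. Egln3, an oxygen-sensing prolyl hydroxylase, was the dimmest of them with 267 and 310 against 57.0 and 83.7.

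On the lower side the largest differences were in Akr1c18, Grp, Oip5os1, Calb1 and Pnma2. Akr1c18, a hydroxysteroid dehydrogenase that inactivates progesterone, read 12.2 and 50.02 with c-Fos shRNA against 531 and 298 with control shRNA, a log2 difference of -3.19 ± 0.48 (limma adjusted p = 0.00054). Its arrays did not overlap, but the replicates of each group also differed clearly from each other. The reading of 12.2 lies within the range of the microglial genes Itgam and Tyrobp on these arrays, so the size of the Akr1c18 difference depends on the constant added before the logarithm, with -3.85 for 1 and -2.25 for 64. Grp, the neuropeptide gastrin-releasing peptide, read 244 and 468 against 1509 and 1636 (-2.14 ± 0.38). Oip5os1, a long non-coding RNA, read 2565 and 3348 against 11970 and 12481.17 (-2.06 ± 0.11). Calb1, the calcium buffer calbindin, read 840 and 944 against 3358 and 3642 (-1.99 ± 0.11). Both bright genes, Oip5os1 and Calb1, were far apart between groups relative to their replicates. Rgs17, which speeds the shut-off of G proteins, differed by -1.78, Esr1, the oestrogen receptor α, by -1.77 with 47.7 and 88.0 against 260 and 293, and Lgi1, a secreted synaptic protein linked to epilepsy, by -1.65. The other 7 of the 15 were Lpgat1, Tmem168, Fam149b, Auh, Zfp941, Dtd1 and Nadk2, with log2 differences between -1.59 and -1.96. With the mean of all probe sets of a gene, differences on either side were smaller but still called for Calb1 (-1.29), Auh (-0.48), Dtd1 (-0.78), Fam149b (-0.97), Akap7 (0.93) and Npnt (0.95).

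**Figure D1:**
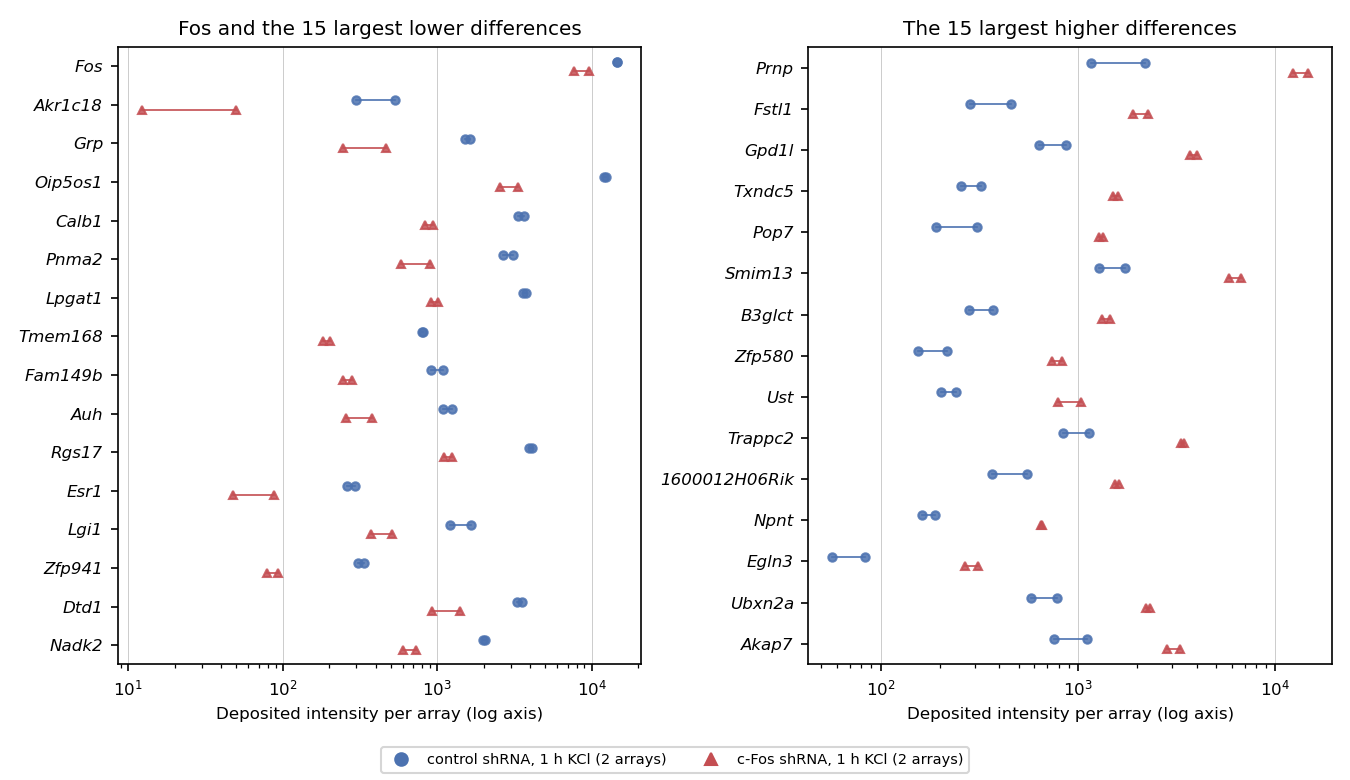
Deposited intensity on each of the 4 arrays of 1 h KCl (log axis) for Fos and the 15 genes with the largest lower (left) and the 15 with the largest higher (right) log2 differences; circles are control shRNA, triangles c-Fos shRNA, and lines join the 2 arrays of a group. In every gene shown the groups do not overlap, and Fos sits at 7728 and 9623 against 14633 and 14719.

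The differences of these 30 genes were present in silenced neurons and at the later times. The 0, 3 and 6 h comparisons use other arrays than the 1 h comparison, and they called 22.3%, 23.3% and 23.8% of all genes. The shares called higher there were 12%, 12.4% and 13.4%, and those called lower 10.3%, 10.9% and 10.4%. All 15 higher genes were called higher, and all 15 lower genes lower, at 0, 3 and 6 h. Prnp differed by 2.35 in log2 at 0 h, 3.01 at 3 h and 2.48 at 6 h. For Calb1 the values were -2.69, -1.55 and -1.65, and for Akr1c18 -2.95, -2.80 and -2.07. Over all genes, 902 of the 1496 higher genes (60.3%) and 692 of the 1389 lower genes (49.8%) were called the same way at 0, 3 and 6 h. With the replicate number as a block these counts were 1590 higher and 1325 lower. In the fit without the block, 1236 higher genes were shared with 0 h alone, which is 82.6% of those at 1 h and 73.8% of the 1674 at 0 h. The lower genes shared 1051 with 0 h, 75.7% of those at 1 h and 73.6% of the 1428 at 0 h. With 3 h, 1164 higher genes were shared (77.8% of 1 h, 67.4% of 3 h) and 976 lower genes (70.3% and 64.5%). At 6 h the lower genes shared 848, 61.1% of those at 1 h and 58.4% of the 1452 at 6 h. Only 90 higher genes (6.02%) and 164 lower genes (11.8%) were called at 1 h and the same way at no other time. None of these was called when the 1 h difference was tested against the mean of the other times. In that test limma called 0 of 13916 genes (0%), with 789 at an unadjusted p under 0.05. With the replicate number as a block it called 146, 59 higher and 87 lower.

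Early-response transcription factors were lower rather than higher with c-Fos shRNA where they were called. Of 26 members tested without Fos, 6 were called lower and 1 higher, beside 9.98% and 10.8% of all genes, and the list's median was -0.29 against 0.02 over all genes. Both c-Fos shRNA arrays lay below both control arrays for 19 of the 26 (73.1%, against 26.8% of all genes). The same list had a median of -0.10 at 0 h. Its median KCl rise from 0 to 1 h was 2.76 in log2 with control shRNA and 2.14 with c-Fos shRNA, values that share the 1 h arrays with the difference between shRNAs. KCl called 3.12% of all genes at 1 h in the control arm (2.3% higher, 0.819% lower) and 3.38% in the c-Fos arm (1.96% higher, 1.42% lower). Leaving out control replicate 1 gave 4 lower calls, and with the replicate number as a block 15 members were called lower, where 18.4% of all genes were. Klf10 and Klf6, zinc finger repressors and activators of the Krüppel family, were among the largest. Klf6 read 1856 and 2186 against 3974 and 4399, a log2 difference of -1.06 ± 0.09 (limma adjusted p = 1.02e-05), and Klf10 read 426 and 513 against 930 and 1250 (-1.16 ± 0.20). Klf10 was about as low at 0 h (-1.27), whereas Klf6 differed by -0.57 there.

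Npas4, an activity-specific factor that shapes inhibitory synapses, read 8397 and 8431 with c-Fos shRNA against 11681 and 11343, a log2 difference of -0.46 ± 0.09 (limma adjusted p = 0.0039). The Npas4 replicates lay within a few percent of each other and the groups were apart. Csrnp1, a nuclear protein of the early response, read 151 and 121 against 328 and 295 (-1.05 ± 0.17, adjusted p by limma 0.00106), or -0.66 with the mean of its probe sets. Ier5, an early gene that acts with heat shock factors, differed by -0.69, and Nr4a2, an orphan nuclear receptor, by -0.29. Ier5 was not called without c-Fos replicate 2 (adjusted p by limma 0.0798) or control replicate 1 (0.0838), and Nr4a2 was not called without c-Fos replicate 1 (0.0553), c-Fos replicate 2 (0.25) or control replicate 1 (0.35). Nr4a3, another orphan receptor, was the exception, at 11035 and 9966 against 8175 and 7661 (0.42 ± 0.08), and it was also higher at 0 h (1.02). Its direction rests on the brightest of 3 probe sets, since the mean of the 3 differed by -0.03.

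Other members were lower on both c-Fos shRNA arrays without passing the test. Egr4 read 1406 and 2358 against 2773 and 2765 (-0.60 ± 0.21, limma adjusted p = 0.0655), and Klf4 read 2807 and 1796 against 3739 and 3152 (-0.61 ± 0.20, limma adjusted p = 0.0502). Nr4a1 read 9106 and 9212 against 12354 and 12156 (-0.42, limma adjusted p = 0.0555). With the replicate number as a block these 3 were called, at adjusted p of 0.0197, 0.00793 and 0.0091 by limma. Egr1, among the brightest genes on these arrays, read 12124 and 13621 against 14685 and 14656 (-0.19, limma adjusted p = 0.588).

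**Figure D2:**
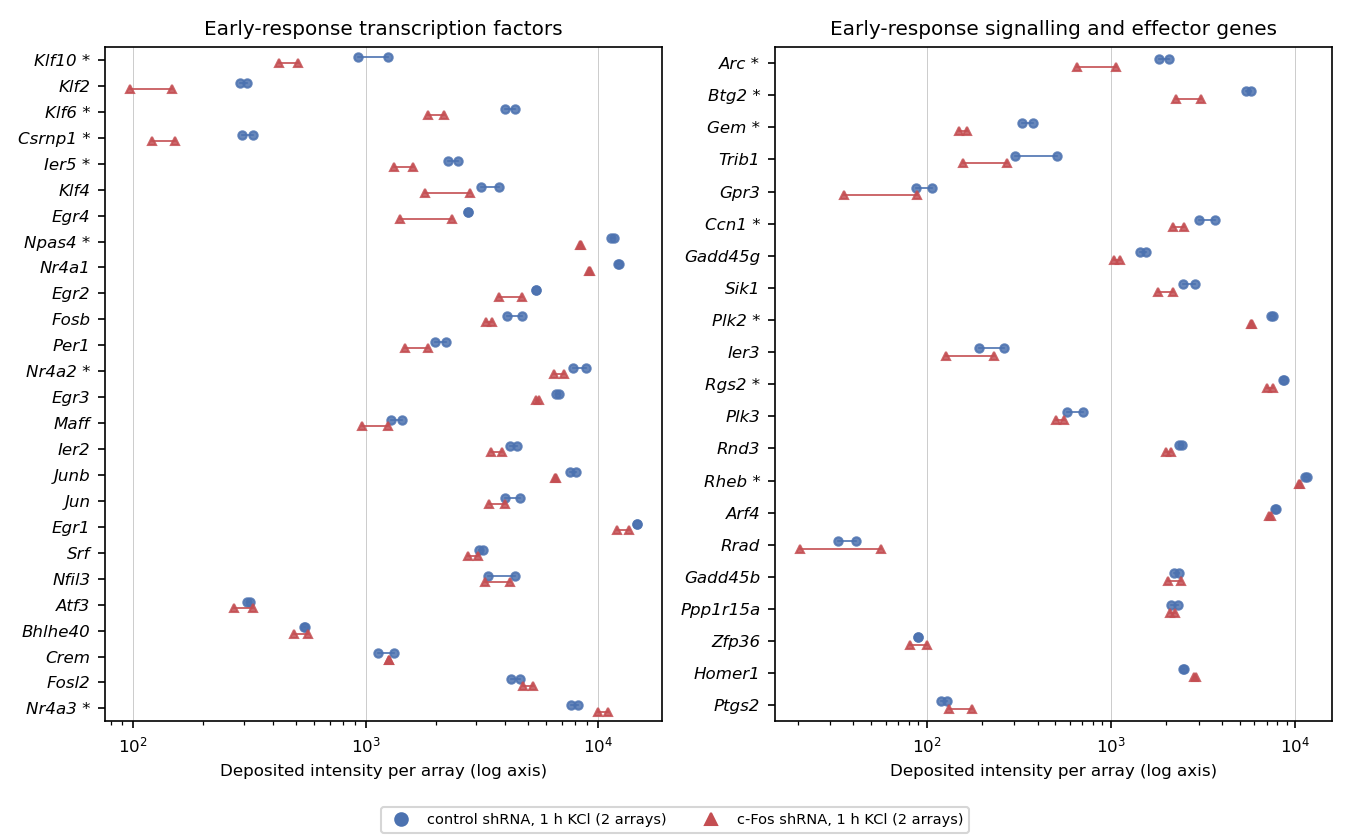
Deposited intensity on each of the 4 arrays of 1 h KCl (log axis) for the tested members of the early-response transcription factor list without Fos (left) and of the early-response signalling and effector list (right), ordered by log2 difference; circles are control shRNA, triangles c-Fos shRNA, and a star marks a called gene. Most red triangles lie left of the blue circles, with Nr4a3, Fosl2, Ptgs2 and Homer1 on the other side.

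Early-response signalling and effector genes followed the same direction where called. Of 21 tested, 7 were called lower and 0 higher, beside 9.98% and 10.8% of all genes, with 1 called higher in the block fit, and the median was -0.26 at 1 h and -0.09 at 0 h. The arrays of both shRNAs were separated with c-Fos lower in 14 of the 21 (66.7%, against 26.8% of all genes). Leaving out c-Fos replicate 1 or control replicate 1 left 4 lower calls, and the block gave 12, where 18.4% of all genes were lower. Arc, a synaptic protein that mediates AMPA receptor removal, read 656 and 1070 with c-Fos shRNA against 1816 and 2069, a log2 difference of -1.19 ± 0.18 (limma adjusted p = 0.000621). Arc at 0 h read 56.3 and 73.6 against 79.9 and 74.4, with a difference of -0.19 that was not called. Btg2, an anti-proliferative cofactor of mRNA decay, read 2252 and 3091 against 5387 and 5752 (-1.08 ± 0.21, limma adjusted p = 0.00303), and at 0 h 392 and 551 against 384 and 483 (0.11). Both genes thus had separated arrays at 1 h. At 0 h the readings of Btg2 overlapped, whereas those of Arc did not, with the nearest at 73.6 and 74.4. Both genes rose with KCl in each arm. Arc rose by 4.37 with control shRNA and 3.36 with c-Fos shRNA in log2, and Btg2 by 3.66 and 2.48. The interaction, which is the KCl change in the c-Fos arm less the KCl change in the control arm and so shares arrays with the 1 h difference, was -1.004 for Arc (limma adjusted p = 0.853) and -1.19 for Btg2 (limma adjusted p = 0.789), so neither was called. With the replicate number as a block the Btg2 interaction was called at a limma adjusted p of 0.00326.

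Among the other called members, Plk2, a kinase of synaptic scaling, read 5816 and 5795 against 7449 and 7569 (-0.36), a call that was lost when its 2 probe sets were averaged (-0.07, limma adjusted p = 0.788). Gem, a small GTPase that inhibits calcium channels, differed by -1.03, but its call was lost without c-Fos replicate 1 (limma adjusted p = 0.072), c-Fos replicate 2 (0.0557) or control replicate 1 (0.107). Ccn1, a matricellular protein, differed by -0.51 and was not called without c-Fos replicate 1 (0.0894) or control replicate 2 (0.112). Rgs2, a G protein regulator, differed by -0.26 and was not called without c-Fos replicate 1 (0.0526) or control replicate 1 (0.0566), and Rheb, a GTPase that activates mTORC1, by -0.11 and not without c-Fos replicate 2 (0.186), control replicate 1 (0.158) or control replicate 2 (0.107). Homer1, a postsynaptic scaffold gene with an inducible short form, read 2910 and 2826 against 2505 and 2471 (0.23, limma adjusted p = 0.0742), and was called higher with the block (0.0054).

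The other AP-1 subunits showed small differences at 1 h. Of 12 tested without Fos, 2 were called lower and 0 higher, beside 9.98% and 10.8% of all genes, with a median of -0.23 at 1 h and 0.19 at 0 h. Both were at the edge of the test. Fosl1, which encodes FRA-1, read 159 and 155 against 230 and 265 (-0.55 ± 0.15, limma adjusted p = 0.0188), and Mafg, a small Maf partner, differed by -0.24. Neither was called when any 1 of the 4 arrays was left out, with adjusted p by limma from 0.0515 to 0.123 for Fosl1 and from 0.061 to 0.292 for Mafg. With the replicate number as a block, 5 of the 12 were called lower, where 18.4% of all genes were. Fosb read 3486 and 3290 against 4690 and 4046 (-0.36, limma adjusted p = 0.279). Junb read 6624 and 6550 against 8028 and 7589 (-0.24, limma adjusted p = 0.0532), and Jun 3405 and 3963 against 3980 and 4608 (-0.22, limma adjusted p = 0.406). With the block both were called lower, Junb at a limma adjusted p of 0.00287 and Jun at 0.0153. Fosl2 read 5259 and 4739 against 4618 and 4214 (0.18) and Jund differed by 0.02. The arrays of the groups did not overlap for Fosb, Junb, Jun and Fosl2, with Fosl2 on the higher side, and overlapped for Jund. For Jun the nearest arrays of the groups read 3963 and 3980. Of the 12, 7 were separated with c-Fos lower (58.3%, against 26.8% of all genes) and 2 with c-Fos higher (16.7%, against 29.3%).

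In 6 genes the difference at 1 h departed from that at 0 h. limma called the interaction in 6 of 13916 genes (0.0431%), 1 higher (0.00719%) and 5 lower (0.0359%), with 420 at an unadjusted p under 0.05. Without control replicate 2 at 0 h 4 were called, without c-Fos replicate 2 or control replicate 2 at 1 h 2 were, and without any of the other 5 arrays of 0 and 1 h 1 was. The block called 28 (0.201%), 3 higher and 25 lower. Vgf, a secreted neuropeptide precursor, read 778 and 865 with c-Fos shRNA against 221 and 246 with control shRNA at 0 h, and 3998 and 3931 against 3696 and 3476 at 1 h. The arms were thus far apart in silenced neurons and nearly together after 1 h. Vgf differed by 1.76 in log2 at 0 h and by 0.15 at 1 h (limma adjusted p = 0.118), and its interaction was -1.61 ± 0.09 (limma adjusted p = 4.67e-06). Vgf rose by 3.87 with control shRNA and by 2.26 with c-Fos shRNA. It was the only 1 of the 6 whose interaction was called under every alternative tried.

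Grasp, a scaffold for metabotropic glutamate receptors, was close between the arms at 0 h and apart at 1 h. It read 419 and 456 against 356 and 385 at 0 h and 848 and 881 against 1642 and 1377 at 1 h, an interaction of -1.01 ± 0.13 (limma adjusted p = 0.0264). Dusp6, the phosphatase that switches off ERK, read 1290 and 1357 against 750 and 933 at 0 h and 4279 and 4098 against 4795 and 5482 at 1 h (-0.95 ± 0.13, limma adjusted p = 0.0326). Both genes were higher on the c-Fos shRNA arrays at 0 h and lower on them at 1 h. The 1 h difference of Dusp6 itself was -0.29, and its call was lost without any 1 of the 4 arrays (limma adjusted p from 0.0586 to 0.233). Kcnf1, a modifying potassium channel subunit, had an interaction of -0.73 ± 0.11 and went from 621 and 742 against 460 and 506 to 1120 and 1150 against 1329 and 1405. Emd, the nuclear envelope protein emerin, had an interaction of -0.73 ± 0.08 and went from 2498 and 2626 against 1851 and 1881 to 3010 and 3225 against 3730 and 3811. In Kcnf1 and Emd as well, the order of the groups at 1 h was turned from that at 0 h. The 1 h difference of Kcnf1 was not called without any 1 of the 4 arrays (limma adjusted p from 0.0996 to 0.193), and that of Emd was not called without c-Fos replicate 1 (0.0562).

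Tgoln1, a membrane protein of the trans-Golgi network, was lower with c-Fos shRNA at both times, by -1.62 at 0 h and -0.83 ± 0.08 at 1 h. It read 966 and 1085 against 3041 and 3197 at 0 h, and 1914 and 2064 against 3378 and 3647 at 1 h, an interaction of 0.79 ± 0.12 (limma adjusted p = 0.0447). With the mean of its probe sets the Tgoln1 interaction was 0.29 and was not called, and the same held for Kcnf1 at -0.42. From 0 to 1 h Tgoln1 rose by 0.93 in the c-Fos arm and differed by 0.14 in the control arm, which was not called (limma adjusted p = 0.648). Of the 28 genes of the block fit, those on the early-response lists were Btg2 (-1.19), Egr3 (-1.17), Trib1 (-0.97), Nr4a3 (-0.60), Jun (-0.57), Nfil3 (-0.56) and Rgs2 (-0.43).

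**Figure D3:**
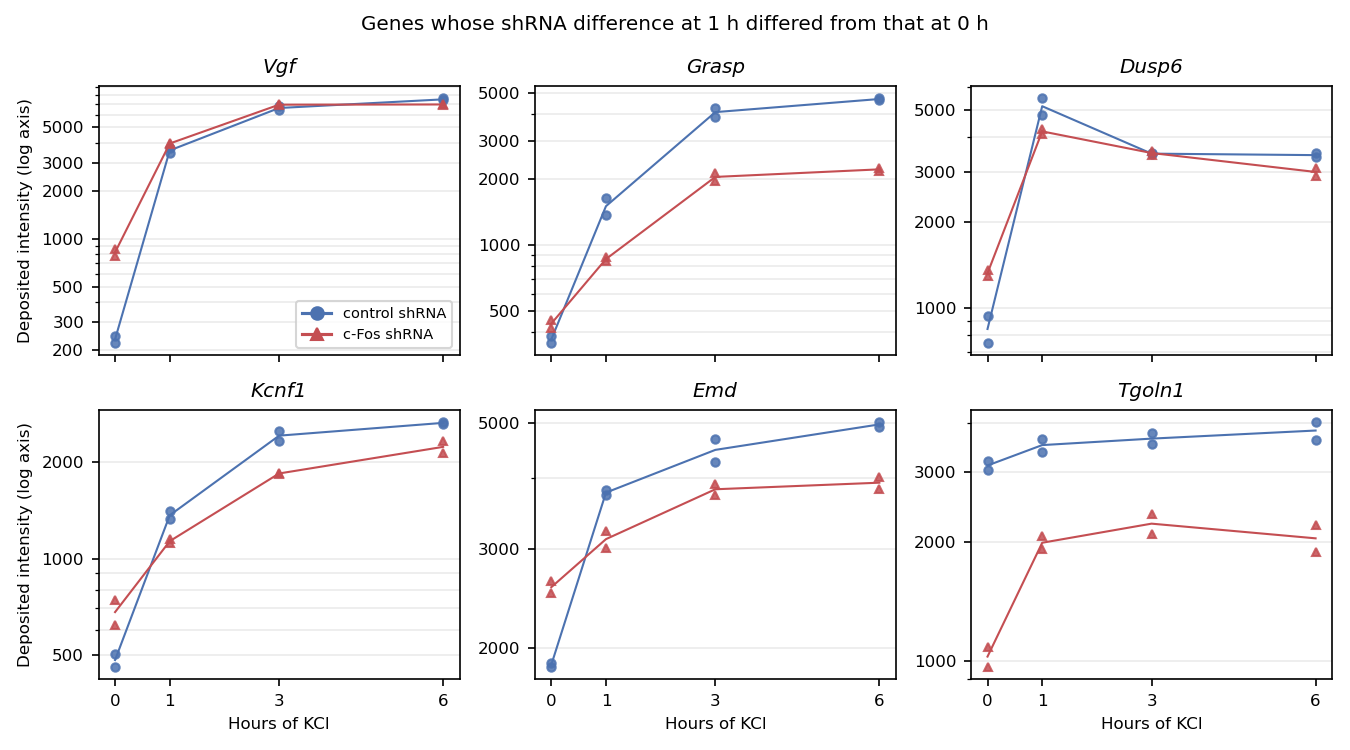
Deposited intensity (log axis) over 0, 1, 3 and 6 h of KCl for the 6 genes whose interaction at 1 h was called; points are single arrays, lines join group means, blue is control shRNA and red c-Fos shRNA. Vgf starts at 778 and 865 against 221 and 246 and meets at 1 h, and Grasp, Dusp6, Kcnf1 and Emd cross between 0 and 1 h.

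**Figure D4:**
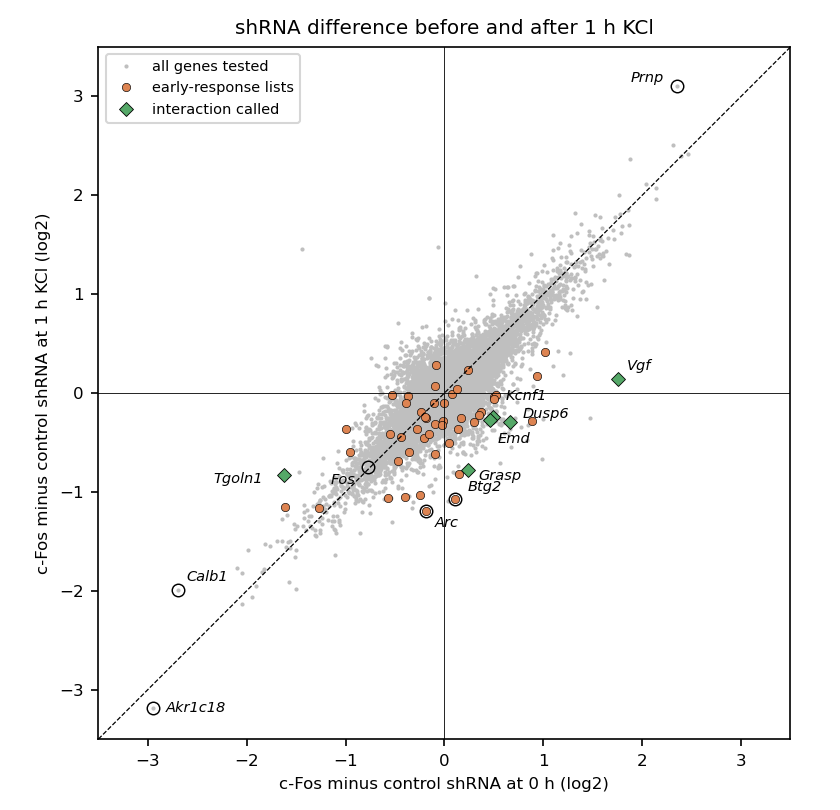
Log2 difference between c-Fos and control shRNA at 0 h (horizontal) against that at 1 h of KCl (vertical) for each of 13916 tested genes, with the early-response lists in orange, the 6 interaction genes as diamonds and the dashed line marking equal values. Prnp, Calb1 and Akr1c18 lie at the ends of the cloud with large differences at both times, whereas Vgf lies at 1.76 and 0.15.

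Genes raised by KCl were next taken as a set that uses no 1 h array. These were the 389 genes called in the mean of 3 and 6 h against 0 h over both shRNAs with a log2 rise of at least 1, without Fos. At 1 h, 67 of them (17.2%) were called lower with c-Fos shRNA and 30 (7.71%) higher, beside 9.98% and 10.8% of all genes, and their median was -0.08 against 0.02. The arrays were separated with c-Fos lower for 146 (37.5%) and with c-Fos higher for 91 (23.4%), beside 26.8% and 29.3% of all genes. At 0 h the counts were 53 lower and 66 higher, where 10.3% and 12% of all genes were. Without control replicate 1 the median of the set at 1 h was -0.08. With the replicate number as a block 121 were lower and 67 higher at 1 h, where 18.4% and 19.4% of all genes were. Genes lowered by KCl by the same rule numbered 438, of which 61 were lower and 54 higher.

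The largest lower differences in the KCl-raised set were Calb1, Lgi1, Rgs13, Arc, Dusp3, Btg2, Csrnp1 and Gem. Dusp3, a phosphatase that acts on MAP kinases, read 571 and 677 against 1418 and 1373 (-1.13 ± 0.16), or -0.71 with the mean of its probe sets. Rgs13 differed by -1.25 and was not called without c-Fos replicate 1 (limma adjusted p = 0.142), control replicate 1 (0.0695) or control replicate 2 (0.0973). Lgi1, Rgs13 and Dusp3 were about as low at 0 h, by -1.52, -1.37 and -1.42. Calb1 was lower still at 0 h, by -2.69 against -1.99 at 1 h. With the replicate number as a block the Calb1 interaction was 0.70 and called (limma adjusted p = 0.00671), while the main fit did not call it. None of Calb1, Lgi1, Rgs13 and Dusp3 was called between 0 and 1 h of KCl in control neurons. On the higher side, Pik3r3, a regulatory subunit of PI3 kinase, read 2646 and 2595 against 961 and 1084 (1.40 ± 0.13), and Chst8, a sulfotransferase for hormone glycans, 683 and 616 against 271 and 273 (1.22 ± 0.12). Pam, the enzyme that amidates neuropeptides, read 1291 and 1646 against 819 and 898 (0.80 ± 0.11). These 3 were higher at 0 h too, by 1.86, 1.16 and 0.86. Kcnj3, Sgtb and Rab3ip differed by 1.03, 0.80 and 0.79, with 0.44 for Kcnj3 when its probe sets were averaged. Mpzl3 (1.07) was not called without c-Fos replicate 2 (limma adjusted p = 0.0565), nor was Pawr (0.93) without c-Fos replicate 1 (0.108) or control replicate 2 (0.109).

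RefSeq promoter windows of 300 bases, from 250 before to 50 after each gene's start in build GRCm38.p6, were searched for the AP-1 motif TGANTCA and for the cAMP response element TGACGTCA. Both motifs read the same on both strands and do not overlap each other. Of 51 genes named by rule, 43 had a window used here, and 3 held the AP-1 motif and 1 the cAMP response element. They are shown because 2 are early-response genes that were lower at 1 h (Csrnp1, Btg2) and 2 were among the largest differences on each side (Prnp, Rgs17). Capitals mark the motif. The Csrnp1 window, 1 of 4 of the gene, is chr9:119982974-119983273 on the minus strand with the AP-1 motif beginning at positions -102 and -14 from the start. The Btg2 window is chr1:134079106-134079405, minus strand, with the cAMP response element at -166. The Prnp window is chr2:131909678-131909977, plus strand, and the Rgs17 window is chr10:5922351-5922650, minus strand, with the AP-1 motif at -102 and -122.
Csrnp1: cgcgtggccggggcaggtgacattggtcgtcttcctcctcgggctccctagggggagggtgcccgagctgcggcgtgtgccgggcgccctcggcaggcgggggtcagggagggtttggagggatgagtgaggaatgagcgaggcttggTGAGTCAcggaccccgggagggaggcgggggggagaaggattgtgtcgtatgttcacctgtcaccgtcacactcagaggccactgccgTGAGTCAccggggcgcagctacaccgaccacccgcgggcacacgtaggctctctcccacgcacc
Btg2: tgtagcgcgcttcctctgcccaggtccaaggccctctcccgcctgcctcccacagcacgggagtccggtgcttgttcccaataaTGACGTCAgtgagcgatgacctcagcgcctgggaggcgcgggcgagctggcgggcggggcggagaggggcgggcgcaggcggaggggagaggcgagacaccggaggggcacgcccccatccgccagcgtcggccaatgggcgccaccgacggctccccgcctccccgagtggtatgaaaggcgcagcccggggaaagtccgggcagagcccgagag
Prnp: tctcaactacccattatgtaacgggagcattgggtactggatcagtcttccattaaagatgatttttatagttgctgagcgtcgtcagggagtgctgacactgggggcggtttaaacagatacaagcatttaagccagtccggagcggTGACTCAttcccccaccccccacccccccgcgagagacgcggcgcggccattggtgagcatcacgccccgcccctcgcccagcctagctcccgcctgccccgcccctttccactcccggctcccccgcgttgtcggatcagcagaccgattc
Rgs17: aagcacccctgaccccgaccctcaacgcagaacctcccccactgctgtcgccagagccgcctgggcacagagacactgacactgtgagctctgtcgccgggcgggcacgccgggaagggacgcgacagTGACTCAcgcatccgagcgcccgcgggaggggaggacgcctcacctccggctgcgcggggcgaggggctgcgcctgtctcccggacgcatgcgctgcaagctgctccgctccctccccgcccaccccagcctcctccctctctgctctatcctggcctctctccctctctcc

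Across all tested genes with a window (11178), 6.22% held the AP-1 motif and 3.37% the cAMP response element, and of all 32851 windows of this length 7.81% and 1.79% did. Genes called higher at 1 h held them in 5.8% and 2.61% of cases, and genes called lower in 6.42% and 4.19%. Of 306 KCl-raised genes with a window, 7.52% held the AP-1 motif and 9.8% the cAMP response element. Among the 53 of these that were called lower at 1 h, 2 held the AP-1 motif and 5 the cAMP response element. A match is a description of the letters and not of binding.

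Feedback and late effector genes were mixed, with shares called near those of all genes (20.7%) for the first 2 of the following lists, at 17.6% and 21.1%, and 29.4% for the third. Of 17 MAP kinase phosphatases and feedback inhibitors, 2 were called lower and 1 higher, with a median of -0.14. With the block 4 were lower, where 18.4% of all genes were. Both c-Fos shRNA arrays lay below both control arrays for 9 of the 17 (52.9%, against 26.8% of all genes). They lay above for 2 (11.8%, against 29.3%). At 0 h the list's median was 0.12, with 1 called lower and 6 higher, where 10.3% and 12% of all genes were. Without c-Fos replicate 1 or control replicate 1 no lower call was left, and 1 was left without either of the other 2 arrays. Spred3, an inhibitor of Ras to ERK signalling, read 322 and 310 against 126 and 141 (1.15 ± 0.14, limma adjusted p = 0.000117), and its call held whichever array was left out. Spred1, its relative, differed by -0.25 and was not called without c-Fos replicate 1 (limma adjusted p = 0.0599), c-Fos replicate 2 (0.0524) or control replicate 1 (0.134). Of 19 late activity-induced effectors, 3 were lower and 1 higher, with a median of -0.09, while the block gave 4 and 3. Lower calls fell to 2 without control replicate 1, and 2 were higher without c-Fos replicate 2. Scg2, the granin secretogranin II, read 4844 and 4509 against 7214 and 6722 (-0.58 ± 0.06), as it did in direction at 0 h (-0.54). Bdnf, the neurotrophin, read 601 and 730 against 568 and 635 (0.17, limma adjusted p = 0.67), so its arrays overlapped. Of 17 genes described as AP-1 targets, 2 were lower and 3 higher, with a median of -0.19. The block gave 4 lower, and 1 was higher without c-Fos replicate 2 or control replicate 1. Ccnd1, cyclin D1, read 1461 and 1775 against 3033 and 3038 (-0.91 ± 0.11, limma adjusted p = 9.26e-05), and was as low at 0 h (-1.11).

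Receptors and channels differed in both directions within each family. Of all genes, 9.98% were called lower and 10.8% higher, or 18.4% and 19.4% with the block. Of 14 glutamate receptor subunits, 4 were called lower and 2 higher (median -0.06). Among AMPA receptor subunits, Gria1 read 2695 and 2922 against 4599 and 4202 (-0.65 ± 0.10, limma adjusted p = 0.000513), and Gria3 read 1898 and 1804 against 663 and 750 (1.43 ± 0.12, limma adjusted p = 8.55e-06). The 2 subunits moved in opposite directions with no overlap between groups, and each had a like difference at 0 h (-0.65 and 1.46). Grm7, a presynaptic metabotropic receptor, differed by 1.59 on its brightest probe set and by -0.48 on another, both called, and by 0.33 on their mean (limma adjusted p = 0.123). Grm5 differed by -0.31, and the calls of Gria2 and Grik3 were lost without some arrays, leaving 2 lower calls without c-Fos replicate 1 or control replicate 2. Of 27 voltage-gated channels, 7 were lower and 2 higher (median -0.02). Kcnv1, a silent potassium channel subunit, read 666 and 789 against 208 and 283 (1.52 ± 0.16), and Kcnq5, an M-current channel, 1173 and 1139 against 2262 and 2014 (-0.87 ± 0.11). Scn2a, a main sodium channel of excitatory neurons, read 3298 and 3279 against 5153 and 5491 (-0.69 ± 0.08). Those calls and that of Scn3a (-0.39) held whichever array was left out. With the mean of all probe sets, Kcnq5 differed by -0.44 (limma adjusted p = 0.139) and Scn3a by -0.14 (0.733), and neither was called. The other 5 channel calls were each lost when at least 1 of the arrays was left out. Lower calls numbered 5 without c-Fos replicate 1, 4 without c-Fos replicate 2 or control replicate 1 and 3 without control replicate 2, and 1 was higher without any of these but c-Fos replicate 2. The block gave 10 lower and 5 higher. Of 9 GABA-A receptor subunits, 2 were lower and 1 higher, or 2 and 3 with the block. Without control replicate 1 none was called, without c-Fos replicate 1 or control replicate 2 none was lower, and without c-Fos replicate 2 none was higher.

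Synaptic and calcium-handling genes were called in both directions, and some of these calls were lost when 1 array was left out. The shares of all genes were 9.98% lower and 10.8% higher, or 18.4% and 19.4% with the block. Of 20 postsynaptic scaffold and adhesion genes, 4 were lower and 2 higher (median -0.14), and with the block 8 and 3. Dlgap1, a scaffold that binds PSD-95, read 3914 and 3983 against 2163 and 2323 (0.84 ± 0.06, limma adjusted p = 4.26e-06), and Nrxn3, a presynaptic adhesion protein, 1718 and 1827 against 3055 and 2978 (-0.77 ± 0.15). Higher calls numbered 3 without c-Fos replicate 1 or control replicate 2. Without c-Fos replicate 2 or control replicate 1 the list had 1 call each way, and the calls of both genes held whichever array was left out. Of 19 vesicle and release genes, 2 were lower and 2 higher, or 4 and 6 with the block, and none was higher without c-Fos replicate 2 or control replicate 1. Cplx2, a complexin that clamps vesicle fusion, read 3138 and 3112 against 4416 and 4636 (-0.54 ± 0.09). Camk2d, a calmodulin-dependent kinase subunit, read 517 and 756 against 1369 and 1790 (-1.30 ± 0.23, limma adjusted p = 0.00156), and Ppp3ca, the catalytic subunit of calcineurin, 8184 and 8986 against 6020 and 6564 (0.45 ± 0.07). Camk2d and Ppp3ca were the same way at 0 h, by -1.13 and 0.43. With the mean of their probe sets the differences shrank to 0.44 for Dlgap1, -0.45 for Nrxn3 and -0.52 for Camk2d, all still called. Of 14 calcium-binding and calmodulin-dependent proteins, 2 were called each way, or 5 higher and 3 lower with the block, and 1 was higher without any array but control replicate 2. Of 10 granins and processing enzymes, Pam was higher and Scg2 lower, with 3 higher and 2 lower in the block fit and 2 higher without c-Fos replicate 2. Of 16 neuropeptides, Grp was lower and Nppc higher. Nppc was not called without c-Fos replicate 1 (limma adjusted p = 0.0815), c-Fos replicate 2 (0.102) or control replicate 1 (0.216), 2 were lower without c-Fos replicate 2, and the block gave 3 lower.

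Genes of the unfolded protein and integrated stress response were mostly higher where called at 0 and 1 h. Of 19 tested, 6 were higher and 1 lower at 1 h (median 0.25), and 10 were higher and 2 lower at 0 h (median 0.44). Of all genes, 10.8% were called higher and 9.98% lower at 1 h, and 12% and 10.3% at 0 h. With the block, 19.4% of all genes were called higher and 18.4% lower at 1 h. The list's median was -0.015 at 3 h and 0.031 at 6 h. Leaving out control replicate 1 left 3 higher and 0 lower, and the block gave 9 and 2. Manf, a secreted factor of endoplasmic reticulum stress, read 4982 and 4505 against 2589 and 2889 (0.81 ± 0.11, limma adjusted p = 0.00022). Hspa5, the chaperone BiP, went the other way, at 7431 and 7703 against 10007 and 9596 (-0.37 ± 0.08), a call lost without control replicate 1 (limma adjusted p = 0.0563). Ddit3, the factor CHOP, differed by 0.50 and was not called without c-Fos replicate 2 (0.101) or control replicate 1 (0.119). Of 14 p53 targets and apoptosis genes, 4 were higher and 3 lower, or 6 and 4 with the block. Ccng1, cyclin G1, read 2752 and 2500 against 4746 and 4584 (-0.84 ± 0.08), or -0.58 and not called with the mean of its probe sets (limma adjusted p = 0.14), and no member was called higher without c-Fos replicate 2 or control replicate 2. Without c-Fos replicate 1 or control replicate 1, 2 were called each way. None of 10 interferon-response genes was called (median 0.18), 2 were called higher with the block, and 1 was without control replicate 2. Of 13 small RNA processing genes, Prkra and Tarbp2, partners of Dicer, were called higher by 0.28 and 0.56, although the mean of the Prkra probe sets differed by -0.016, and 5 were higher with the block. Without c-Fos replicate 1 the list had 1 call, and none without c-Fos replicate 2 or control replicate 1.

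The summed intensities of the excitatory, inhibitory, pan-neuronal and progenitor marker lists were lower on both c-Fos shRNA arrays than on both control arrays. Those of microglia markers were higher, and those of the other 3 lists overlapped. The sums are of deposited intensities without normalization, and the array medians were 108.52 and 113.77 against 112.62 and 115.19. On the normalized scale the pan-neuronal list had a median log2 difference of -0.06, with 6 of 10 below 0. The excitatory list had a median of -0.18, with 6 of 9 below 0. Of all genes, 9.98% were called lower and 10.8% higher. Excitatory neuron markers summed to 27573 and 26402 on the c-Fos shRNA arrays and to 33069 and 32124 on the control arrays, and 2 of 9 were called lower. The block called 5 lower and 2 higher, and 1 was higher without c-Fos replicate 1. Neurod2, a neuronal differentiation factor, read 3558 and 3444 against 6156 and 6097 (-0.81 ± 0.09, limma adjusted p = 4.8e-05), and Tbr1, a factor of deep-layer neurons, 1786 and 1798 against 2889 and 2683 (-0.63 ± 0.11). Rbfox3, which encodes NeuN, read 3841 and 4746 against 6566 and 7290 (-0.70 ± 0.12). These 3 genes were lower at 0 h as well, by -0.92, -0.49 and -0.74. Inhibitory neuron markers summed to 21521 and 21509 against 21807 and 22338, with a median log2 difference of 0.0005. None of these 9 was called, with 1 higher in the block fit. Progenitor markers had a median log2 difference of 0.097, with 4 of 9 below 0. Vim, the brightest of them, read 8672 and 8744 against 10267 and 10837, while Cdk1 read 1303 and 1457 against 989 and 1173. The progenitor list summed to 18187 and 19080 against 20006 and 22421. Of 9, 3 were lower, among them Hes5, a Notch target, at 415 and 389 against 565 and 725 (-0.62 ± 0.12), and 2 were lower without c-Fos replicate 2 or control replicate 2. The block also called 1 progenitor marker higher. Of 10 astrocyte markers, Slc1a3, a glutamate transporter, was called lower by -0.20 (-0.36 with the mean of its probe sets), and no astrocyte marker was called without c-Fos replicate 2, control replicate 1 or control replicate 2, while the block called 3 lower and 1 higher. Of 10 pan-neuronal markers, Rbfox3 was lower and Tubb3 higher (0.20), a call lost without any array but c-Fos replicate 1, and the block called 3 lower. Without c-Fos replicate 1, 2 pan-neuronal markers were lower. No oligodendrocyte, vascular or microglial marker was called, of 7, 7 and 2 tested, and the block called 1 vascular marker lower. The part of these markers in the other differences was not tested.

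**Figure D5:**
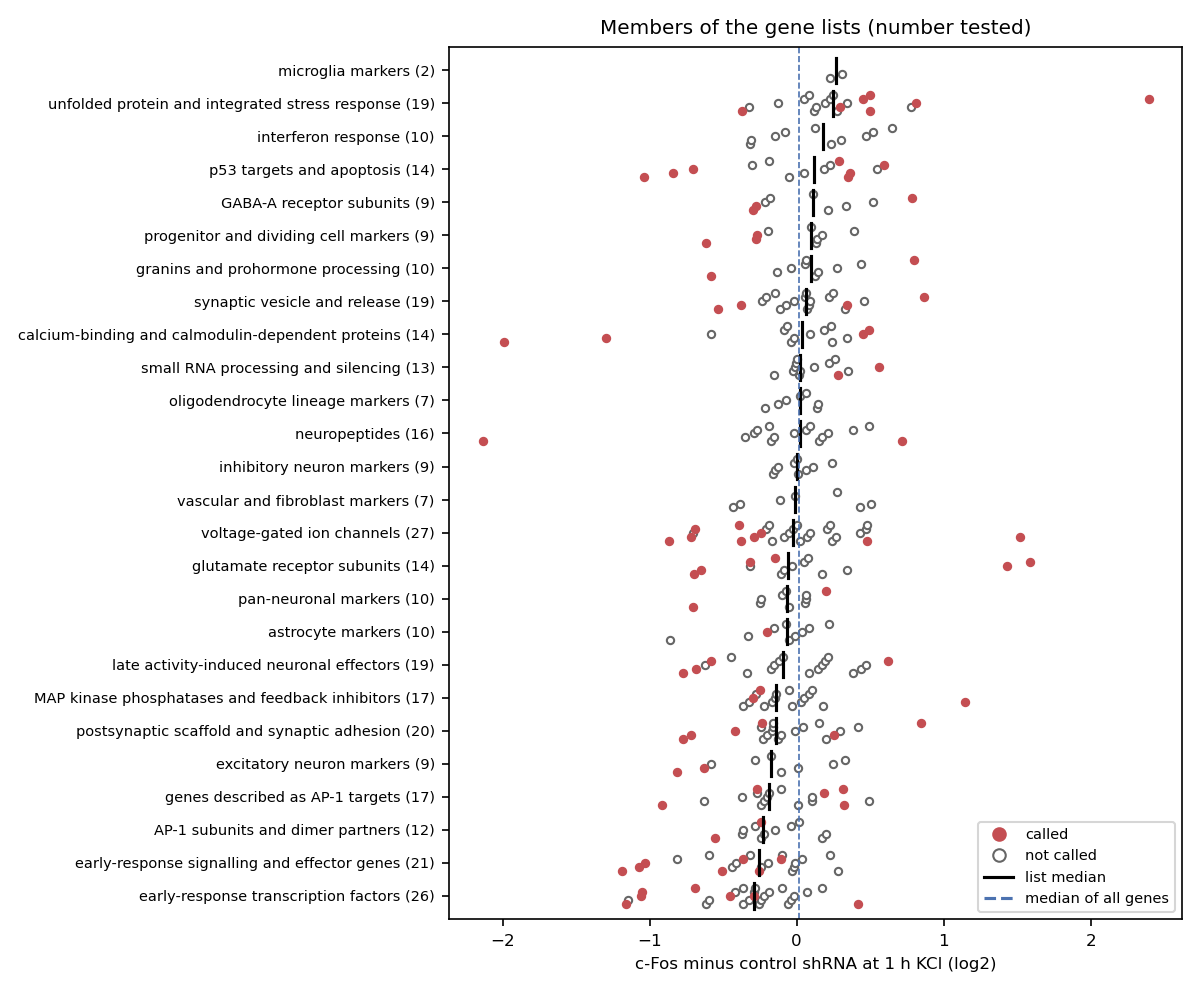
Log2 difference between c-Fos and control shRNA at 1 h of KCl for each tested member of 26 gene lists, with red points called, open points not called, a black bar at each list's median and a dashed line at the median of all genes (0.02). The early-response lists lie lowest with medians of -0.29 and -0.26, and single members such as Txndc5, Grm7 and Calb1 lie far from their list's median.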

How the data were processed

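The values deposited by the authors were linear intensity values of 45101 probe sets on each array. The sources used here do not give the summarization software or its scaling, and no detection calls or scan dates were used. Array medians differed by 13.184%, above the 10% set for further normalization, so log2(intensity + 16) was quantile normalized, a scale that understates differences of dim genes. The platform annotation gave 1 gene for 34945 probe sets, several for 932 and none for 9160 of 45037 that were not controls, and 34741 matched RefSeq symbols. The probe set with the highest mean stood for a gene, and 13916 of 18194 genes lay above the 30th percentile of all probe sets. limma 3.58.1 in R 4.3.3 fitted 8 group means over 16 arrays (lmFit, eBayes with an intensity trend, 8 residual degrees of freedom), and every adjusted p is from it, by Benjamini-Hochberg over all tested genes of a comparison. The fit was tested on simulated data.

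The genes named by rule were Fos, the 15 largest called differences each way with separated arrays, all called interactions, and the 8 largest each way among KCl-raised genes; called list members came next. The remaining members given with values were chosen after these were seen. Members, lists and tests were chosen with earlier results of these data known. The lists held 396 symbols, of which 337 were tested. Replicate numbers come from the labels. The difference between replicates correlated across genes at 0.36414 to 0.59566 over 28 pairs of groups, so the numbers were taken to pair the arrays. The main fit holds no block. The value with the block is given beside some results only, and results without it may change with the block too. Alternatives covered normalization, pseudocount, filter, probe sets, trend, the arrays fitted, the block and leaving out each array. Promoter sequences are RefSeq windows.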

Additional observations from a re-analysis of the deposited data

Results flagged for a closer look

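The difference between the shRNAs at 1 h differed from that at 0 h, by limma's interaction term, in 6 genes. The interaction in log2 was -1.61 for Vgf, -1.01 for Grasp, -0.95 for Dusp6, -0.73 for Kcnf1, -0.73 for Emd and 0.79 for Tgoln1. Of these, Vgf was called under every alternative tried and the other 5 were not.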

How the results depend on the processing

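With 2 arrays a group, the precision is set by the spread of all 16 arrays. The 1 h count of 2885 stayed within 1.5 times under other normalizations, pseudocounts, filters, probe sets and without the trend (2058 to 3004), was 1672 from the 4 arrays alone and ran from 1590 to 2177 when 1 array was left out. The replicate block, used because the numbers pair the arrays, gave 5267. The interaction count of 6 was 28 with the block, 3 with the mean of all probe sets, 1 without the trend, 1 from the 8 arrays of 0 and 1 h, and 1 to 4 without 1 array. The test of 1 h against the other times gave 0 genes, 146 with the block, 2 with a pseudocount of 64, 1 without the trend and 0 without any 1 array. The count called the same way at all 4 times, 1594, was 2915 with the block and 1104 to 1462 without 1 array. Of 125 genes followed whose 1 h difference was called, 65 kept direction and call under every alternative, and 59 lost the call under at least 1. With the mean of all probe sets 5 turned: Cacna1h to 0.20, Dlg2 to -0.0079, Lrrtm4 to 0.16, Nr4a3 to -0.031 and Prkra to -0.016. The cause was not tested.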

Other observations

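Probe sets of the same gene were called in opposite directions at 1 h in 27 genes, which include Grm7 and Kcnc1. For Kcnc1, a fast potassium channel, the brightest probe set differed by -0.38 and another by 0.39.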
